A study of Labeotropheus fuelleborni x Mchenga conophoros and Petrotilapia nigra x Mchenga conophoros and Petrotilapia nigra x Aulonocara baenschi with 10 samples.

Results

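The locus ncf4 was followed through the whole-brain transcriptomes of 10 first-generation (F1) hybrid male cichlids of Lake Malawi, as 1 of the 32455 loci counted. It is the row numbered gene6157 of the count table, and its name comes from the study's own list of differentially expressed genes. It was selected with measured values in view, because it was abundant and stood higher in males that courted over sand than in males that courted over rock. Its levels in those groups are therefore given as a description, without a test. The 4 social sand males courted over sand in a tank with a brother, their 4 social rock brothers courted over rock in the same tanks, and the 2 lone males were tested without another male and courted over rock. Each hybrid had a father of a rock-dwelling species and a mother of a sand-dwelling species, all males of a cross came from 1 brood, and every tank held hybrid females. The dyads came from the crosses Petrotilapia nigra x Mchenga conophoros, Petrotilapia nigra x Aulonocara baenschi, Maylandia zebra x Tramitichromis intermedius, and Labeotropheus fuelleborni x Mchenga conophoros (sire first). The lone males were a further brother of the Labeotropheus fuelleborni x Mchenga conophoros dyad and a male of the cross Maylandia zebra x Mchenga conophoros, which had no dyad. Within dyads, context was scored from where each fish courted, and was not assigned. Being tested alone, in contrast, was set by the design. The paper reports that the larger brother of a dyad was always the social rock one, so body size and context cannot be told apart within dyads.

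Rock-dwelling and sand-dwelling cichlids are the main lineages of the Lake Malawi radiation. Rock males defend territories among boulders, and sand males of many species build sand bowers to which they court females. In mammals NCF4, neutrophil cytosolic factor 4, is the p40phox-type subunit of the phagocyte NADPH oxidase, the enzyme with which neutrophils and macrophages make superoxide. Its protein carries a PX domain, which binds a phosphoinositide of the phagosome membrane, an SH3 domain, and a PB1 domain through which it joins its partner in the oxidase. The same list gives SH3D19, an adaptor protein with several SH3 domains, as the human counterpart of the cichlid locus. Its annotation and its human counterpart thus point to different proteins that share the SH3 domain, and the role of the cichlid locus is not settled by the names.

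Libraries held 206320 to 335551 counts in social sand, 375132 and 457974 in lone and 492489 to 694114 in social rock males, so every social sand library was shallower than every other. Between 11357 and 13199 loci had a count in social sand libraries, 15827 and 15776 in lone and 15483 to 16629 in social rock libraries. The most abundant row, gene32450, has no name in the sources used and stood apart in 1 brood. It took 0.110% of the counts in the social sand and 0.0511% in the social rock male of Labeotropheus fuelleborni x Mchenga conophoros, 5.14% in their lone brother, and 10.3% to 16.7% in the remaining 7 libraries. The neuronal marker snap25, a synaptic membrane fusion protein, was present in all groups, at 696 ± 260 CPM in social sand (SD, n = 4), 2016 ± 431 CPM in lone (SD, n = 2) and 1326 ± 428 CPM in social rock males (SD, n = 4).

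ncf4 was among the most strongly counted loci of these brains, and its level was highest in the 4 social sand males. Levels are given as CPM, the counts of a locus scaled to a common library total after adjustment by TMM, a correction for the composition of the library. In social sand males ncf4 stood at 8708 CPM (Petrotilapia nigra x Mchenga conophoros), 7550 CPM (Petrotilapia nigra x Aulonocara baenschi), 9152 CPM (Maylandia zebra x Tramitichromis intermedius) and 8181 CPM (Labeotropheus fuelleborni x Mchenga conophoros). In lone males it stood at 1989 CPM (Labeotropheus fuelleborni x Mchenga conophoros) and 2263 CPM (Maylandia zebra x Mchenga conophoros). In social rock males it stood at 3797, 4802, 3942 and 2427 CPM, in the same order of crosses as for social sand. The 3 groups did not overlap: every social sand male lay above every social rock male, and every social rock male lay above both lone males. A level higher in all 4 social sand males than in the other 6 fish was found for 292 of the 7733 loci tested, or 3.78%, and one lower in both lone males than in all 4 social rock males for 6.58%. Group means were 8398 ± 691 CPM in social sand (SD, n = 4), 2126 ± 194 CPM in lone (SD, n = 2) and 3742 ± 983 CPM in social rock males (SD, n = 4). These are whole brains, so a difference in the number of cells that use the gene and a difference in RNA per cell cannot be told apart.

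The raw counts behind these levels were large. ncf4 had 2476, 1379, 2101 and 1999 counts in social sand males, 815 and 1063 in lone males, and 1748, 2845, 2136 and 1372 in social rock males, each in the order of crosses above. Counting error alone would give a coefficient of variation (SD over mean) of 1.87% to 3.50% for a library. The observed one of the CPM was 8.22% among social sand and 26.3% among social rock males. For the unscaled share of the library it was 7.48% and 16.7%. Replicates are separate fish, so the observed spread holds differences between animals as well as counting error, and that of the CPM also depends on the scaling.

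As a plain share of the library, without any scaling, ncf4 took 0.668% to 0.797% of the counts in social sand, 0.217% and 0.232% in lone, and 0.272% to 0.410% in social rock males. The lowest social sand share, in the Petrotilapia nigra x Aulonocara baenschi male, had a 95% Clopper-Pearson interval of 0.634% to 0.704%. The highest social rock share, in his brother, had one of 0.395% to 0.425%. The lowest social rock share, 0.272% in the Labeotropheus fuelleborni x Mchenga conophoros male, had an interval of 0.258% to 0.287%, and the higher lone share one of 0.218% to 0.246%. Such intervals cover counting error only. By number of fragments ncf4 ranked 4, 4, 6 and 4 among all loci in the social sand libraries, 32 and 28 in the lone libraries, and 17, 14, 17 and 21 in the social rock libraries. These ranks are of fragments, not of transcripts, because transcript lengths were not used here.

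**Figure D1:**
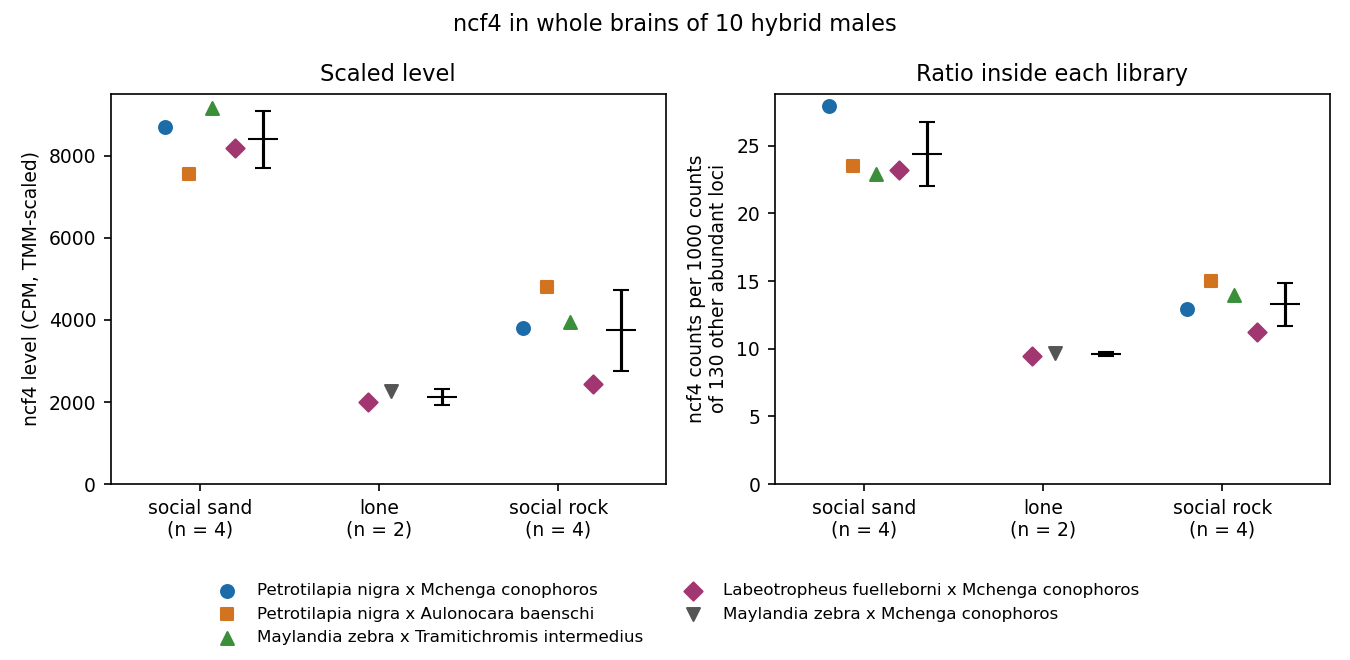
ncf4 in each of the 10 brains, by group, with symbols for the cross. The left panel gives CPM and the right panel ncf4 counts per 1000 counts of 130 other abundant loci in the same library, and black bars are the group mean and SD. The 4 social sand males lie between 7550 and 9152 CPM, above the lone males (1989 and 2263 CPM) and the social rock males (2427 to 4802 CPM), and the order of the groups is the same in the right panel.

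Fitted over all loci, the social sand over social rock difference of ncf4 was 1.17 on the log2 scale (standard error 0.209), a 2.24-fold higher level in social sand. The lowest social sand male stood at 1.57 times the level of the highest social rock male. At an adjusted p under 0.05 and a fold of at least 2, edgeR's quasi-likelihood test called 25 loci (0.323%) higher and 243 (3.14%) lower in social sand than in social rock, with brood as a block 61 (0.789%) and 372 (4.81%), and with total counts in place of TMM 8 and 244. Since the locus was selected on this contrast, nothing is read from its place in these counts.

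Abundant loci as a class leaned the same way as ncf4, which bears on how its size is read. Of the 132 loci that averaged at least 1000 CPM, 118 had a positive social sand over social rock difference, with a median of 0.40 on the log2 scale, against a median of -0.07 for all 7733 loci. ncf4 had the largest difference among the 132, but it was selected for its abundance and this difference, so nothing is read from that rank. Of the 132, 2 were called higher, ncf4 included, and 5 lower. Over loci of all levels ncf4 ranked 246 of 7733 from the top, and the loci above it averaged under 1000 CPM. Of the other 9 loci among the 10 most abundant, the fitted differences ran from 0.08 (gene12243) to 0.68 (gene12803), and none of these loci was called or carries a name. The ratio of ncf4 to the other abundant loci inside each library needs no scaling between libraries, and it was added after the values were seen. For each 1000 counts of the 130 other abundant loci, without gene32450, there were 22.9 to 27.9 ncf4 counts in social sand (mean 24.4 ± 2.38, SD, n = 4), 9.49 and 9.70 in lone (mean 9.59 ± 0.147, SD, n = 2), and 11.3 to 15.0 in social rock males (mean 13.3 ± 1.60, SD, n = 4). On this measure the groups again did not overlap, and the means of social sand over social rock stood in a ratio of 1.83, smaller than the 2.24-fold from the scaled counts.

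**Figure D2:**
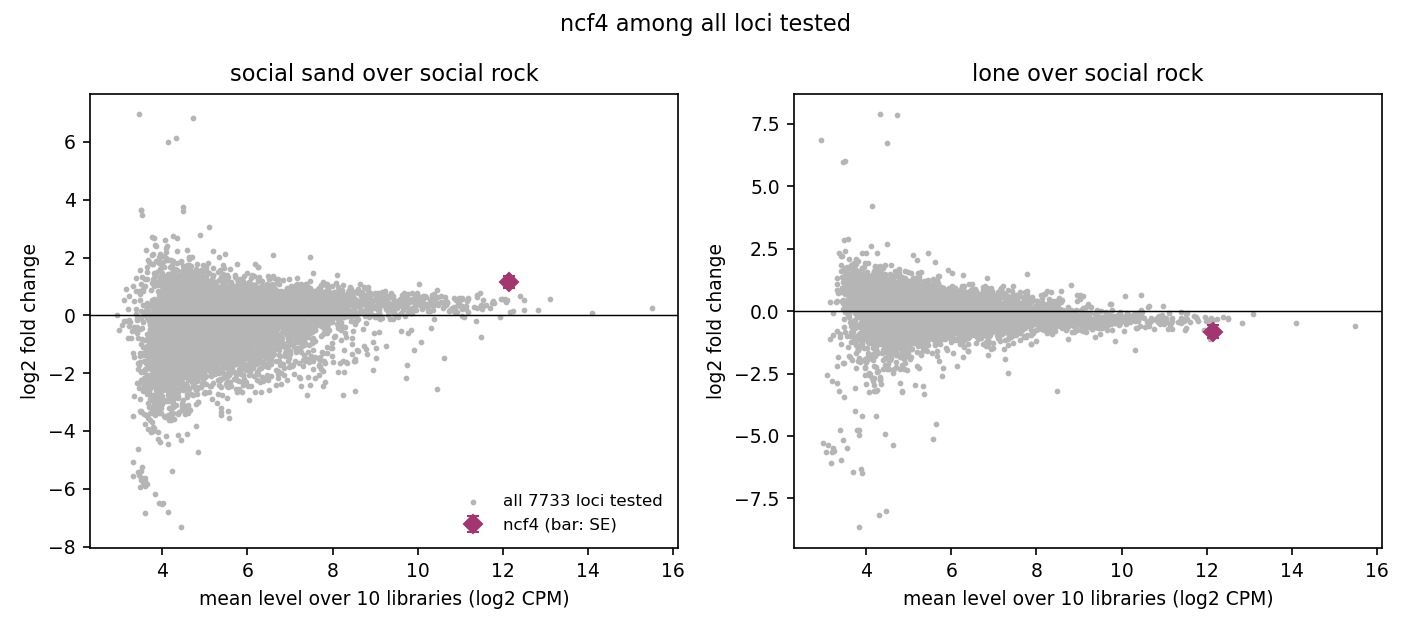
Fitted log2 fold change against mean level (log2 CPM over 10 libraries) for the 7733 loci tested, with ncf4 as a diamond and its standard error as a bar. On the left, social sand over social rock, ncf4 stands at 1.17 above a band of abundant loci that lies mostly above 0, and on the right, lone over social rock, it stands at -0.82 below a band that lies mostly under 0.

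The scaling moved the zero line more than it moved ncf4 relative to other loci. With total counts in place of TMM the median of all loci was -0.22 instead of -0.07, and ncf4 1.04 instead of 1.17. Relative to the median locus, ncf4 stood 1.23 higher with TMM, 1.24 with DESeq2's size factors (RLE), 1.22 with upper quartile scaling and 1.26 with total counts. The 4 libraries with the fewest counts are the 4 social sand libraries, so depth and context cannot be told apart by the design. After every library was thinned to 206320 counts, ncf4 kept 1379 to 1624 counts in social sand, 454 and 458 in lone, and 583 to 883 in social rock males, and the fitted difference was 1.12 (standard error 0.200).

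Within each dyad the social sand brother had more ncf4 than his social rock brother. The ratio of brothers was 2.29 in Petrotilapia nigra x Mchenga conophoros, 1.57 in Petrotilapia nigra x Aulonocara baenschi, 2.32 in Maylandia zebra x Tramitichromis intermedius and 3.37 in Labeotropheus fuelleborni x Mchenga conophoros. The mean log2 ratio was 1.20 ± 0.449 (SD, n = 4 dyads), a 2.30-fold mean. Of all loci tested, 11.4% were higher in the social sand brother in all 4 dyads. Levels ran from 7550 to 9152 CPM in the social sand and from 2427 to 4802 CPM in the social rock brothers, and the dyad with the highest social rock level had both the lowest social sand level and the smallest ratio. With brood as a block in the fit to the 8 dyad males, the difference was 1.22 (standard error 0.316). Against the other abundant loci of the same library, the 4 ratios were 2.16, 1.56, 1.64 and 2.06 in the same order, so the ratio of the Labeotropheus fuelleborni x Mchenga conophoros dyad was then below that of Petrotilapia nigra x Mchenga conophoros.

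The Labeotropheus fuelleborni x Mchenga conophoros brood held all 3 contexts. Its social sand male had 8181 CPM, its lone male 1989 CPM and its social rock male 2427 CPM. The social sand male thus stood at 4.11 times the level of the lone brother, and the social rock male at 1.22 times. This social rock male had the lowest ncf4 of his group, and without him the social sand over social rock difference was 0.94 (standard error 0.173), a 1.92-fold difference and below the 2-fold bound used for calls. Without all 3 males of the brood it was 0.98 (standard error 0.192). Without the social rock male of Petrotilapia nigra x Aulonocara baenschi, who had the highest level of his group, it was 1.31 (standard error 0.213).

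**Figure D3:**
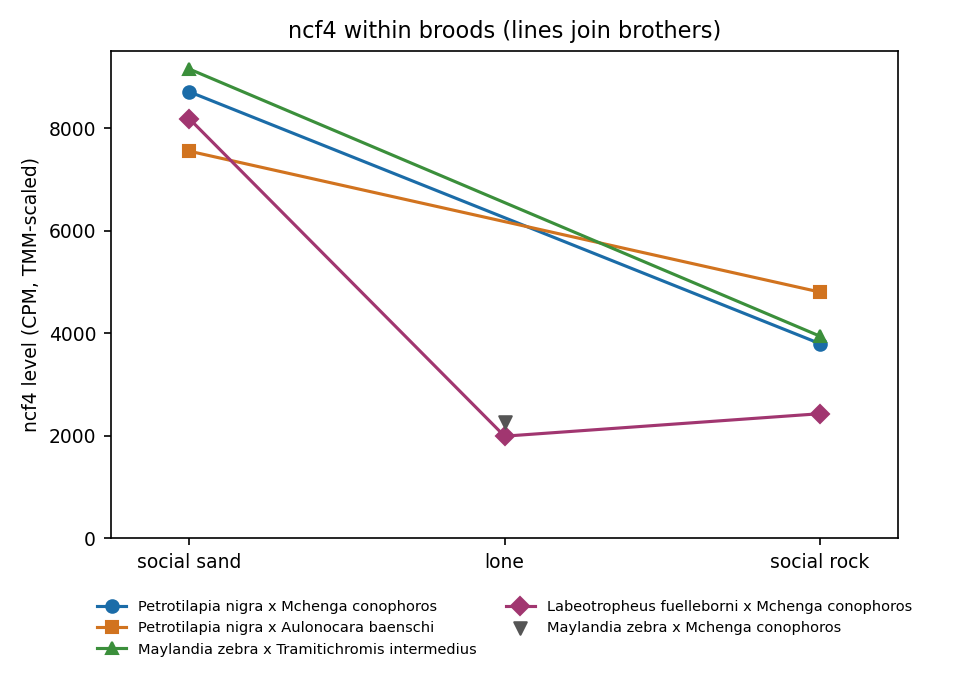
ncf4 level (CPM) by context, with lines joining brothers of a brood. All 4 lines run downward to the social rock brother, at social sand over social rock ratios of 1.57 to 3.37, and the brood with a lone brother has him at 1989 CPM, near his social rock brother at 2427 CPM. The lone male of Maylandia zebra x Mchenga conophoros, 2263 CPM, has no brother here.

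The cross was not among the measures on which the locus was selected, and its part was tested in the 8 dyad males. The interactions and within-dyad ratios, however, are built from the social sand over social rock difference, on which the locus was selected. Sons of Petrotilapia nigra sires had a mean over brothers of 6214 CPM and sons of the other sires 5925 CPM. The fitted sire difference was 0.21 on the log2 scale (standard error 0.285, edgeR adjusted p = 0.987), and an exact permutation test over the 4 broods gave p = 1, two-sided. Sons of Mchenga conophoros dams averaged 5778 CPM and sons of the other dams 6361 CPM, a fitted difference of -0.26 (standard error 0.269, edgeR adjusted p = 0.982, exact permutation p = 0.667). The interaction of context with sire was -0.64 on the log2 scale for Petrotilapia nigra (standard error 0.492, edgeR adjusted p = 0.810). The mean within-dyad log2 ratio was 0.93 in broods of Petrotilapia nigra and 1.48 in the others, with an exact permutation p = 0.333. For sons of Mchenga conophoros dams the interaction was 0.62 (standard error 0.557, edgeR adjusted p = 1), with a mean log2 ratio of 1.48 in their broods and 0.93 in the others and an exact permutation p = 0.667. None of these differences passed its test. With 4 broods the exact test cannot go below 0.333, and the fits over 8 libraries do not take into account that brothers share a brood. With total counts in place of TMM the sire and dam differences were 0.07 and -0.09 and the interactions -0.33 and 0.49, with adjusted p of 0.858 to 1.

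Lone males courted over rock, as social rock males did, and had less ncf4 than all 4 of them. The fitted lone over social rock difference was -0.82 on the log2 scale (standard error 0.263), a level of 0.568 times that of social rock. In edgeR the raw p was 0.00631 and the adjusted p = 0.970 over 7733 loci, so it was not called, and the social rock libraries are shared with the contrast on which the locus was selected. An exact permutation test of the difference in means, -1616 CPM, gave p = 0.2, two-sided, where 2 fish against 4 cannot go below 0.0667. edgeR called 0 loci higher and 0 lower (0% each) between lone and social rock males, with 275 at an unadjusted p under 0.05. DESeq2 and limma-voom also called 0, while edgeR called 52 without a low-count filter, 45 with CPM above 1 in 3 libraries, 17 with brood as a block in all 10 males and 13 without the Labeotropheus fuelleborni x Mchenga conophoros brood. With that block the ncf4 difference was -0.59 (standard error 0.454, edgeR adjusted p = 1), and since the other lone male has no brother it rests on 1 lone fish. Without the social rock male of Labeotropheus fuelleborni x Mchenga conophoros the difference was -1.04 (standard error 0.209, edgeR adjusted p = 0.234), the lowest adjusted p over all alternatives, which ran up to 1. Here too abundant loci leaned the same way: the median of the 132 was -0.33, with 3 lower than ncf4, against 0.05 for all loci. Relative to the other abundant loci inside a library, lone males had 0.722 times the social rock mean.

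Against social sand males, the lone males had a fitted difference of -1.98 on the log2 scale (standard error 0.280), or 0.253 times the social sand level, given without a test since it uses the libraries on which the locus was selected. The higher lone male stood at 0.300 times the lowest social sand male. Among these 10 fish the 3 groups did not overlap, and the lone and social rock groups lay nearest to each other. The higher lone male had 2263 CPM and the lowest social rock male 2427 CPM. Both lone males lay below all 4 social rock males in 6.58% of the loci tested. With that share and the tests above, a lone level separate from social rock is not shown.

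**Figure D4:**
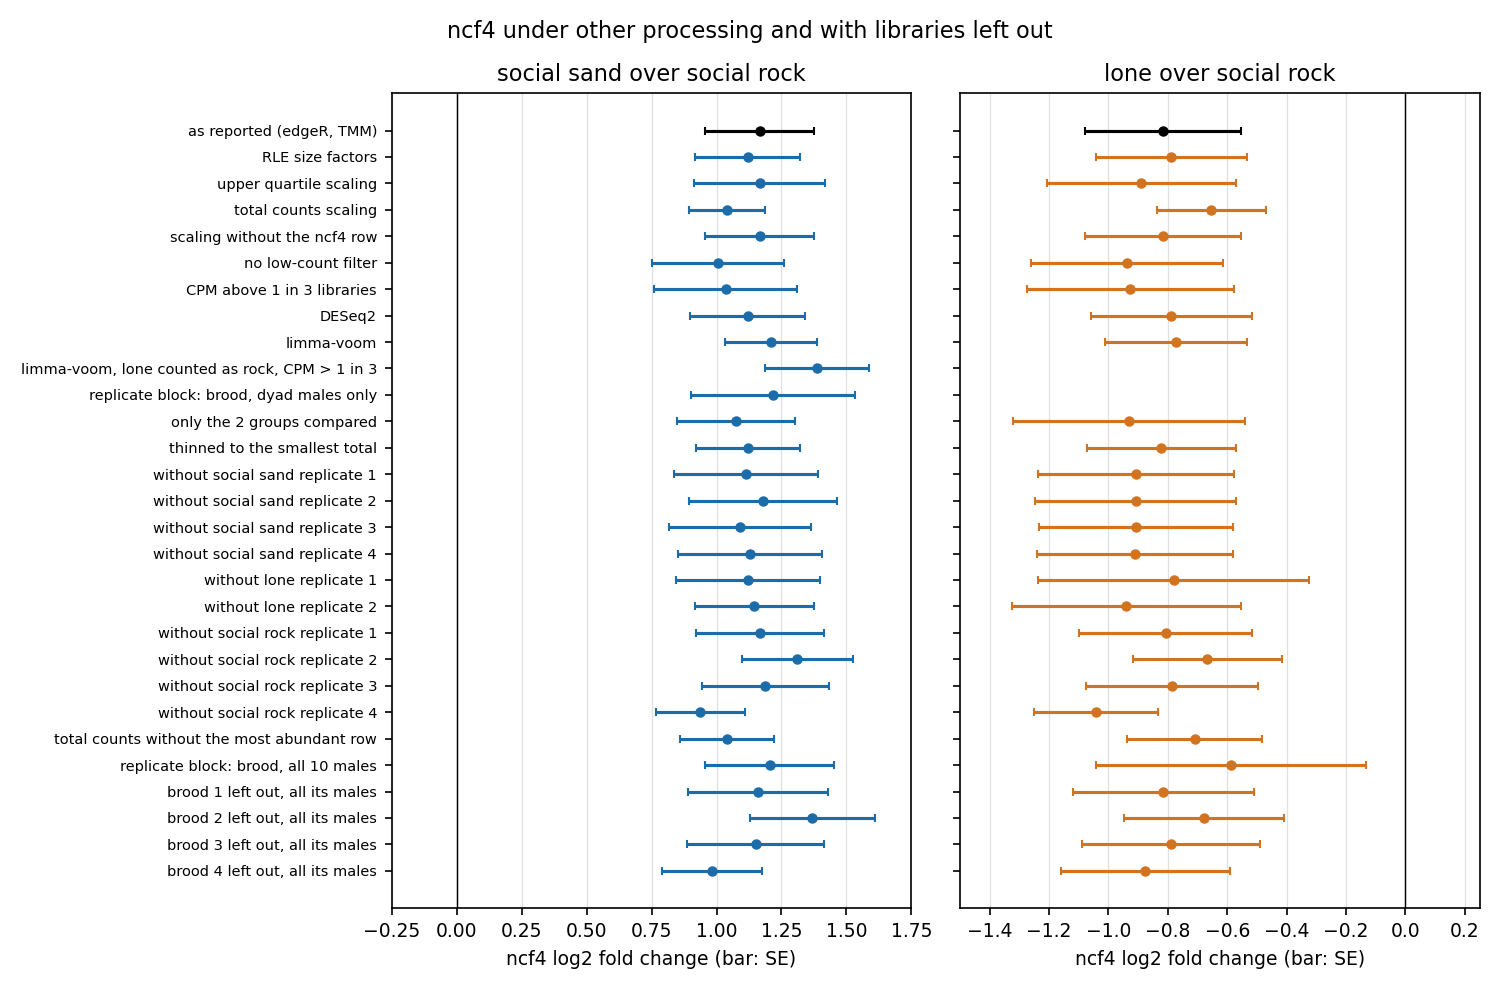
Fitted ncf4 log2 fold change with its standard error under other scalings, filters and tools and with libraries or broods left out. Replicates and broods 1 to 4 are the 4 dyad crosses in the order of the text, and lone replicates 1 and 2 the lone males in that order. Values run from 0.94 to 1.39 for social sand over social rock and from -1.04 to -0.59 for lone over social rock, and 2 settings hold no lone over social rock value.

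The loci whose levels followed ncf4 most closely across the 10 libraries were sought among the 4398 loci with a mean log2 CPM of at least 5. Pearson's r of log2 CPM was at least 0.9 for 128 of them, of which 15 carry a name, and -0.9 or lower for 211, of which 148 carry a name. These correlations are descriptions. The 10 points share 3 groups, their scaling and a depth that differs between groups, so any locus that separates social sand from the rest scores high, and the named loci were themselves chosen by the study on these samples. The most similar rows, gene1625 (r = 0.985) and gene5287 (r = 0.981), have no name in the sources used.

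Among the 10 named loci most like ncf4, casc1 came first with r = 0.973, at 425 ± 71.4 CPM in social sand, 126 ± 0.911 CPM in lone and 212 ± 55.6 CPM in social rock males (SD, n = 4 social sand, 2 lone and 4 social rock males, here and for the loci that follow). It was followed by pbld (r = 0.965) and by LOC112436015 (r = 0.959), a homolog of DEF6. LOC112436015 stood at 358 ± 87.2 CPM in social sand, 89.2 ± 12.3 CPM in lone and 186 ± 61.7 CPM in social rock males, and its lowest social sand value, 254 CPM, lay under its highest social rock value, 267 CPM, so those groups overlapped. zdhhc6 (r = 0.950), an enzyme that attaches palmitate to proteins, had 359 ± 39.3 CPM in social sand, 118 ± 22.6 CPM in lone and 172 ± 44.6 CPM in social rock males. zbtb3 (r = 0.946) is a zinc finger protein of the BTB family. LOC101478856 (r = 0.943) is annotated as aspartate beta-hydroxylase domain-containing protein 2, at 1743 ± 199 CPM in social sand, 650.0 ± 77.2 CPM in lone and 814 ± 176 CPM in social rock males.

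The remaining named loci of this set were faap100 (r = 0.942), a subunit of the Fanconi anaemia core complex that acts in DNA cross-link repair, LOC101487954 (r = 0.942), polr2d (r = 0.930) and vps33b (r = 0.929). LOC101487954 is annotated as perforin-1-like, and perforin in mammals forms the pores through which cytotoxic lymphocytes kill their targets. It had 226 ± 37.7 CPM in social sand, 75.5 ± 13.6 CPM in lone and 110 ± 8.94 CPM in social rock males. polr2d, a subunit of RNA polymerase II, had 203 ± 45.1 CPM in social sand, 49.5 ± 12.8 CPM in lone and 87.6 ± 17.1 CPM in social rock males. vps33b acts in traffic to late endosomes and lysosomes. With the group means removed, r with ncf4 ran from 0.283 (LOC101487954) to 0.799 (casc1) in these 10 loci. Of the 10, 5 stayed among the 10 most alike. The loci were picked by an r over the same libraries that includes differences inside groups. A positive r was therefore likely beforehand, and nothing is read from it.

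The named loci least like ncf4 included calcium sensors and a synaptic scaffold. LOC101468055 (r = -0.982), a 14-3-3 protein that binds phosphorylated partners, stood at 53.7 ± 9.56 CPM in social sand, 289 ± 2.11 CPM in lone and 185 ± 92.4 CPM in social rock males. LOC101476438 (r = -0.978) encodes piccolo, a scaffold of the presynaptic active zone, with 24.4 ± 5.58 CPM in social sand, 205 ± 27.8 CPM in lone and 117 ± 42.8 CPM in social rock males. calm2 (r = -0.977) encodes the calcium sensor calmodulin, with 90.4 ± 27.4 CPM in social sand, 1070 ± 88.6 CPM in lone and 617 ± 434 CPM in social rock males. The order of the group means was thus the reverse of that of ncf4 in each. In LOC101468055 and calm2 the social rock male of Labeotropheus fuelleborni x Mchenga conophoros lay above both lone males, so lone and social rock overlapped. stau1 (r = -0.977), an RNA-binding protein that carries mRNA in dendrites, and LOC101471140 (r = -0.973), the calcium sensor visinin-like protein 1, completed this set.

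**Figure D5:**
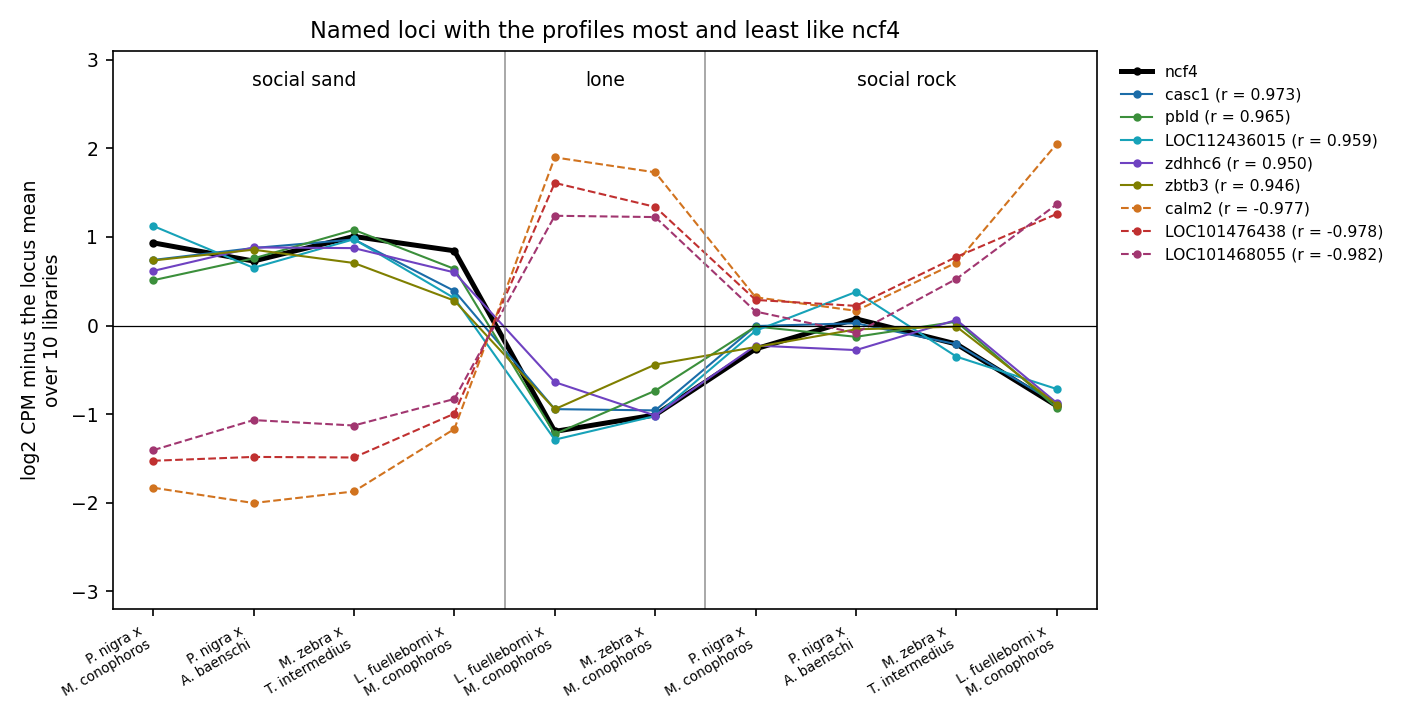
log2 CPM minus the mean of each locus over the 10 libraries, for ncf4 (thick black line), the 5 named loci with the highest r (solid lines) and the 3 with the lowest (dashed lines), by fish. In social rock the male of Labeotropheus fuelleborni x Mchenga conophoros lies nearest to the lone males. Lines of the 2 sets mirror each other, as their choice by highest and lowest r implies.

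The loci next to ncf4 in the table did not share its level. Locus numbers followed genomic order in all 747 neighbouring pairs of named loci on the same scaffold, so near numbers are read as near positions. ncf4 lies between the named loci cct4, which encodes a chaperonin subunit, and cpe, which encodes the peptide-processing enzyme carboxypeptidase E, with 73 numbered loci between it and cct4 and 39 between it and cpe. Of the 10 loci numbered within 5 of it, 3 had 0 counts in all libraries and 2 had enough counts to be tested. gene6158 had 23 to 83 counts in social sand, 88 and 119 in lone and 66 to 143 in social rock libraries, and its social sand over social rock difference was -0.23 (standard error 0.327, edgeR adjusted p = 0.705). gene6159 had at most 11 counts in a library and a difference of 0.90 (standard error 0.746, edgeR adjusted p = 0.489). Neither was called. Fragments that fit another locus equally well could be counted or dropped by the counting, and which was done is not given in the sources used here.

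The partners of NCF4 could not be followed. Of the 16 genes of the phagocyte NADPH oxidase and its relatives that were looked for, the catalytic and regulatory subunits, Rac GTPases and dual oxidases included, 0 loci other than ncf4 carried a name in the sources used, and the same held for the 11 markers of neutrophils and other myeloid cells and the 4 of erythrocytes. Names came only from the study's list of differentially expressed genes, so a gene without a name here may still have been counted. Blood or myeloid cells in these brains could therefore not be followed by named markers. Their part in the level of ncf4 was not tested. Of the 11 microglial markers 1 locus was named and tested, LOC101486394, with SLC7A7 given as its human counterpart. Its annotation reads Y+L amino acid transporter 2, and whether it marks microglia in these brains was not tested. Only 79 counts fell on this locus over all 10 libraries. It had 0 to 14.1 CPM in social sand, 24.4 and 44.7 CPM in lone and 10.1 to 28.3 CPM in social rock males, with a social sand over social rock difference of -1.92 (standard error 0.855, edgeR adjusted p = 0.206), and was not called.

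Genes of related function were described where they had a name, with a limit. The study had itself picked every named locus on these samples, as different between social rock and social sand males. Calls among named loci were therefore likely beforehand, and the shares of all loci are no fair background for them. Of 4 named loci in the list drawn up for superoxide and peroxide, 3 were tested. Of these, 0 were called higher and 1 lower in social sand (0.323% and 3.14% of all loci). Their median was -2.44, against -0.07 for all loci. The one that fell was LOC101475014 (GPX4 in humans), which reduces lipid peroxides, at 18.0 ± 7.63 CPM in social sand and 69.3 ± 30.1 CPM in social rock males (log2 fold change -1.93, standard error 0.512, edgeR adjusted p = 0.0474). sod1, which turns superoxide into peroxide, had 8.99 ± 10.9 CPM in social sand and 51.9 ± 49.4 CPM in social rock males (edgeR adjusted p = 0.0862), and prdx2, a peroxiredoxin, 2.64 ± 5.28 CPM in social sand and 17.9 ± 9.21 CPM in social rock males (edgeR adjusted p = 0.176). Neither passed the test, and keap1 had too few counts. Over all 10 libraries LOC101475014 had 270 counts, sod1 187 and prdx2 71, so levels in the shallow social sand libraries rest on few counts. The single named locus among the genes of phosphoinositide 3-kinase and protein kinase C, LOC101463777, was also not tested. It is annotated as regulatory subunit gamma of phosphatidylinositol 3-kinase, with PIK3R2 given as its human counterpart.

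Named loci that share a domain with mammalian NCF4 were lower in social sand or did not pass the test. The limit on named loci given above holds here too, so the shares of all loci are no fair background. Of 3 PX domain loci, all annotated as sorting nexins, 1 was called lower, against 3.14% of all loci. This was snx14 (12.5 ± 3.38 CPM in social sand, 53.1 ± 21.8 CPM in social rock males, log2 fold change -2.04, standard error 0.503, edgeR adjusted p = 0.0335). snx25 (edgeR adjusted p = 0.0747) and snx6 (edgeR adjusted p = 0.109) were not called. These levels, too, rest on few counts, 186 for snx14, 148 for snx25 and 59 for snx6 over all 10 libraries. Of 4 named SH3 domain loci 3 were tested and 1 was called lower, and sh3tc2 had too few counts. LOC101482997 (SH3GL2 in humans), the endophilin of synaptic vesicle recycling, fell (35.5 ± 26.0 CPM in social sand, 172 ± 57.0 CPM in social rock males, log2 fold change -2.21, standard error 0.499, edgeR adjusted p = 0.0232), while bin1 (edgeR adjusted p = 0.109) and rusc1 (edgeR adjusted p = 0.0566) were not called. The medians of the PX and SH3 loci were -2.06 and -1.70. With brood as a block 2 of the 3 loci on superoxide and peroxide, 2 of the 3 PX loci and 3 of the 3 SH3 loci were called lower, against 4.81% of all loci. Few of these calls held with fish left out. With 1 library left out at a time, 0 to 1 loci on superoxide and peroxide, 0 to 1 PX loci and 0 to 2 SH3 loci were called lower, and 0 of each without the social sand male of Maylandia zebra x Tramitichromis intermedius or the social rock male of Labeotropheus fuelleborni x Mchenga conophoros. With a whole brood left out 0 were called in each set, except 1 locus on superoxide and peroxide and 2 SH3 loci without Petrotilapia nigra x Aulonocara baenschi.

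The named markers of brain cell types stood lower in social sand males, which had the high ncf4 levels. These loci, too, carry a name only because the study listed them as different between social rock and social sand males. Markers outside that list have no name here, so the share of all loci is no fair background for the calls below. All 6 named astrocyte loci were called lower in social sand, against 3.14% of all loci, among them slc1a2, the main glutamate transporter of astrocytes, at 355 ± 159 CPM in social sand and 1584 ± 840 CPM in social rock males (log2 fold change -2.16, standard error 0.360, edgeR adjusted p = 0.00662). Both myelin loci and 3 of 5 neuronal loci were called lower as well. The neuronal loci are not all separate genes in humans: snap25 and LOC101468238 share SNAP25 as counterpart, and sncb and LOC101469304 share SNCB. The remaining one is LOC101484681 (SLC17A7 in humans). The genes looked for were 7 for astrocytes, 5 for myelin and 9 for neurons. Summed over the tested loci of a list, astrocyte markers ran from 832 to 1260 CPM in social sand, 3693 and 3975 CPM in lone and 2032 to 5174 CPM in social rock males. Neuronal markers ran from 986 to 1572 CPM in social sand, 3506 and 4385 CPM in lone and 2204 to 4337 CPM in social rock males, and myelin markers from 436 to 872 CPM, 2464 and 3187 CPM, and 1418 to 3296 CPM in these groups. The median log2 fold changes were -1.70 for astrocyte, -1.59 for myelin and -1.25 for neuronal loci. With all males of a brood left out, in the order of the dyads above, the loci called lower were 2, 6, 0 and 1 for astrocytes, 1, 2, 0 and 1 for myelin and 1, 3, 0 and 0 for neurons. With 1 library left out they were 2 to 6 for astrocytes, 2 for myelin and 1 to 3 for neurons, lowest for astrocytes without the social sand male of Maylandia zebra x Tramitichromis intermedius or the social rock male of Labeotropheus fuelleborni x Mchenga conophoros. The part of these markers in the level of ncf4 was not tested.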

How the data were processed

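The authors made stranded poly(A) mRNA libraries, filtered and trimmed reads (NGS QC Toolkit, mean quality at least 20), mapped them onto the Maylandia zebra assembly MZ_UMD2a by TopHat 2.0.9 and deposited the raw HTSeq 0.6.1 counts of each locus (the submitters' processing notes also name SAMtools 0.19 and edgeR 3.6.8). For the annotation release, strand setting and multiply aligned fragments, nothing is given in the sources used here. All hybrids were aligned to this 1 genome, and Maylandia zebra is a parent species only in the crosses that name it as sire. An effect of species alleles on alignment was not tested.

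Groups came from the sample titles, whose endings SUB, DOM and LONE were read as social sand, social rock and lone. Loci were kept by filterByExpr (minimum count 10) and tested by the quasi-likelihood test of edgeR 4.0.16 (R 4.3.3) with TMM, 3 groups in 1 fit and Benjamini-Hochberg adjustment over 7733 loci, at 0.05 and a fold of at least 2. Log2 CPM used a prior count of 2. DESeq2 1.42.0 and limma 3.58.1 gave alternatives, and matplotlib 3.10.9 the figures. The scripts were tested on simulated counts. Totals of 206320 to 694114 counts per library limit precision for loci with few counts. Brothers share a brood by the series description. Their deviations from the group means correlated at 0.0666, 0.197, 0.126 and 0.213.

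Names came from the naming columns of the study's list, of which 812 loci were used. Its values were not used. Named loci are ncf4, the 10 named loci with the highest and the 5 with the lowest correlation, the 2 most similar unnamed rows (added after their values were seen), the loci numbered within 5, the 10 most abundant, and up to 4 members of a list. ncf4 and all lists were chosen with earlier results of these data known.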

Additional observations from a re-analysis of the deposited data

How the results depend on the processing

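The social sand over social rock difference of ncf4 was positive in all 28 alternatives tried, from 0.94 to 1.39, and moved by less than the spread between fish (0.287 on the log2 scale, pooled within groups). The lone over social rock difference was negative in all 26, from -1.04 to -0.59, and was not called in any. The lone over social sand difference ran from -2.09 to -1.70. With each library left out in turn they ran from 0.94 to 1.31, from -1.04 to -0.67 and from -2.09 to -1.90. With brood as a replicate block ncf4 stood at 1.22 in the dyad males only. In all 10 males it stood at 1.20 for social sand over social rock, -0.59 for lone over social rock and -1.79 for lone over social sand, where 1 lone male alone has brothers. The within-dyad mean log2 ratio was 1.05 with total counts, 1.06 with totals without ncf4, 1.07 without gene32450 and 0.88 against the other abundant loci. With total counts the sire and dam terms kept their signs but shrank to 0.07 and -0.09, and their interactions to -0.33 and 0.49.

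Counts of called loci depended far more on the setting, and the cause was not tested beyond the number of loci or samples each setting holds. Between social sand and social rock 268 loci were called, against 627 without a filter, 624 with CPM above 1 in 3 libraries, 480 with DESeq2, 29 with limma-voom, 831 with limma-voom, that filter and lone males counted as social rock, and 433 (dyad males) or 507 (all males) with brood as a block. They were 89 to 468 with a library left out, lowest without the social sand male of Maylandia zebra x Tramitichromis intermedius, and 64, 372, 7 and 38 without the whole brood of Petrotilapia nigra x Mchenga conophoros, Petrotilapia nigra x Aulonocara baenschi, Maylandia zebra x Tramitichromis intermedius and Labeotropheus fuelleborni x Mchenga conophoros. With total counts 8 were called higher and 244 lower, against 25 and 243. Between lone and social rock 0 were called, against 2 with upper quartile scaling, 52 without a filter, 45 with CPM above 1, 4 with only those groups, 0 to 9 with a library left out, 17 with the block in all males, and 13 without the Labeotropheus fuelleborni x Mchenga conophoros brood. Between lone and social sand 656 were called (538 higher, 118 lower, and 676 and 44 with total counts), against 989 with CPM above 1, 308 with limma-voom, 133 to 937 with a library left out, 49 with the block in all males, and 320, 695, 170 and 240 without the 4 broods in that order. Where 1 lone male was left, he was assumed to vary like the other groups. Of the 10 named loci most like ncf4, 5 remained among the top 10 with group means removed, 7 to 10 with a library left out and 8 to 10 otherwise. The settings without a brood or gene32450, the block in all males, the total-count cross tests and the ratio to abundant loci were added after the data were seen.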
